A study of Homo sapiens with 12 samples.

Results

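TIP60 siRNA was compared with control siRNA in empty-vector MCF10A cells. MCF10A is an epithelial line from human breast that does not form tumours, and the derivative used here stably carries the MSCV vector with no insert. The 2 TIP60-siRNA libraries and the 2 control-siRNA libraries were taken by their labels, and they are 4 of the 12 libraries of the study. All 4 came from cells harvested 72 h after transfection with Lipofectamine RNAiMAX, and both groups carry the empty vector. The other 8 libraries come from 2 derivatives of the same line that stably express an siRNA-resistant TIP60, wild-type or catalytically dead, under the same 2 siRNAs. Libraries were paired by replicate number. The labels do not say that the libraries came from separate cultures. The p-values thus measure the spread between libraries, taken from all 12, and that spread may be technical. RNA was measured in bulk, so that fewer cells of a type and less RNA per cell cannot be told apart.

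TIP60, encoded by KAT5, is a lysine acetyltransferase and the catalytic subunit of the NuA4/TIP60 chromatin complex. It acetylates histones and other proteins, among them p53 and the DNA damage kinase ATM, and acts in transcription and DNA repair. A cassette exon is one that the splicing machinery either keeps in the mature mRNA or skips together with its flanking introns, so that 1 gene yields a longer and a shorter form.

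For each cassette exon the authors deposited an inclusion level, the MISO estimate of the share of transcripts that keep the exon, from 0 (always skipped) to 1 (always kept), with the numbers of reads behind it. Isoform-specific reads are those that match just 1 of the forms, with or without the exon. The test covered exon events for which each of the 4 libraries held 10 or more such reads. Of 5518 events listed in all 4 libraries, 3088 met this, in 2081 genes. Differences are given as TIP60 siRNA minus control siRNA.

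Sequences are shown for 7 coding or part-coding exons of the results below, because they are the RNA whose share differed: the 4 that passed the inclusion test, MYL6 and DIAPH1, which passed the read test, and EIF4H, which passed neither and is shown as an exon with higher inclusion. Each line gives the gene and the cassette exon in capitals, 5' to 3' on the transcript, between the flanking bases of the neighbouring exons in lower case, from GENCODE release 29 transcripts. For MYL6 only the first, coding part of the exon is given, without flanks, because the stop codon lies within the exon.
ARHGAP17: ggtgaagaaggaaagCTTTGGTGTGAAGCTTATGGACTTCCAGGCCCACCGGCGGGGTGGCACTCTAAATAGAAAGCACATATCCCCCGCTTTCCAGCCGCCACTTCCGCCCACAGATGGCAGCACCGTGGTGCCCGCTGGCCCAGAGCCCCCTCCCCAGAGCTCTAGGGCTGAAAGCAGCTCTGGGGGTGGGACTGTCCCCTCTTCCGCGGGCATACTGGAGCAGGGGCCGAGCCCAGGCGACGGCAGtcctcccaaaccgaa
MARK3: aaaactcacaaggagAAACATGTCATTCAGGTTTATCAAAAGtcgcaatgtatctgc
DIAPH1: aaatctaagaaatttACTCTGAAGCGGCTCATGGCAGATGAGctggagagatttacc
SBF1: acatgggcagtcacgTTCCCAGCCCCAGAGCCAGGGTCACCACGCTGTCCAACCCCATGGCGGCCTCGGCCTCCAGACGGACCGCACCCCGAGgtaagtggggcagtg
PPP3CB: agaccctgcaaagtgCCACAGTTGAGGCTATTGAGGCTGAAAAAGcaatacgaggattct
EIF4H: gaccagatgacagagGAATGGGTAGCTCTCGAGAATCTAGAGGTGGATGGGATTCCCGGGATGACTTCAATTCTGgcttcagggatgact
MYL6: CGTTTGTGAGGCATATCCTGTCGGGG
On hg38 the ARHGAP17 exon lies at chr16:24939364-24939597 on the minus strand. The MARK3 exon lies at chr14:103498502-103498528 on the plus strand, the DIAPH1 exon at chr5:141588224-141588250 on the minus strand and the SBF1 exon at chr22:50457034-50457111 on the minus strand. The PPP3CB exon lies at chr10:73439872-73439901 on the minus strand, the EIF4H exon at chr7:74190247-74190306 on the plus strand and the MYL6 exon at chr12:56160626-56160670 on the plus strand. The MARK3 and DIAPH1 exons both have 27 bases, the PPP3CB exon 30, the MYL6 exon 45, the EIF4H exon 60 and the SBF1 exon 78.

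The targeted gene was read first, as a check of the labels. KAT5 has 1 listed event, an alternative coding exon of 156 bases, which fell short of the read minimum and was therefore not tested. Reads of the form with the exon numbered 5 and 2 in the TIP60-siRNA libraries (replicates 1 and 2), against 37 and 8 in the control-siRNA libraries. Per 1000000 event reads of the library (RPM) these were 2.52 and 1.52 with TIP60 siRNA, against 17.2 and 5.84 with control siRNA. Reads of the form without the exon numbered 5 and 0 with TIP60 siRNA, against 18 and 1 with control siRNA. The groups did not overlap in reads with the exon. A count of 3 reads, the limit that a count of 0 allows, was 1.51 and 2.27 RPM in the TIP60-siRNA libraries, and such limits cover counting error only.

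In depth and in the share of usable reads, the libraries numbered 1 and those numbered 2 differed more than the siRNA groups did. Reads that fitted at least 1 form of an event numbered 1985994 and 1319097 with TIP60 siRNA and 2148196 and 1368876 with control siRNA. Reads that overlapped an event but fitted neither form made up 50.1 and 65.7% with TIP60 siRNA and 50.8 and 65.4% with control siRNA. The tested events had a median of 72 and 60 isoform-specific reads with TIP60 siRNA and of 96 and 60 with control siRNA, and the MISO interval of an inclusion level had a median width of 0.16 and 0.18 with TIP60 siRNA and of 0.13 and 0.18 with control siRNA. Of 15 epithelial marker genes, 6 had a listed event (CDH1, CLDN7, ESRP1, ITGB4, LAMA3 and TP63), with a summed level of 2850 and 3240 RPM in the TIP60-siRNA libraries and 2760 and 3210 RPM in the control-siRNA libraries. Of 12 mesenchymal markers FN1, ZEB1 and ZEB2 had one, with a summed level of 1250 and 319 RPM with TIP60 siRNA and 574 and 138 RPM with control siRNA. That sum runs over 8 events. Of the 3 genes only FN1, with 4 events, entered the test of event reads below, and it was not called. The sum thus does not show a rise in each of the 3 genes. The part of these marker levels in the results was not tested. None of 6 immune and 4 endothelial markers had a listed event, and a gene with no catalogued cassette exon cannot be seen in these files.

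Exon inclusion was lower more often than higher after TIP60 siRNA, and few exons passed the test one by one. ARHGAP17, SBF1 and MARK3 lost exon inclusion and PPP3CB gained it. These 4 of 3088 events passed limma at an adjusted p under 0.05 with the replicate number as a block, which is 0.13% of the events tested (0.0972% lower and 0.0324% higher). At an unadjusted p under 0.05 there were 356 events, or 11.5%, of which 267 were lower (8.65%) and 89 higher (2.88%). A test of the isoform-specific reads themselves, a quasi-binomial model, passed 16 events or 0.518%, of which 14 were lower (0.453%) and 2 higher (0.0648%), with 319 events (10.3%) at an unadjusted p under 0.05. An event of SBF1 and one of MARK3 passed both tests. The 16 became 9 with another prior for the dispersion of the read test, whose prior was chosen after seeing the data.

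MARK3 encodes a microtubule affinity-regulating kinase. Inclusion of its exon was 0.02 and 0.02 in the TIP60-siRNA libraries, against 0.36 and 0.41 in the control-siRNA libraries. The exon was thus nearly always skipped in both TIP60-siRNA libraries, and the groups lay far apart. The underlying reads were 2 with and 113 without the exon, then 0 with and 69 without it, under TIP60 siRNA, against 62 with and 82 without, then 25 with and 30 without, under control siRNA. The difference was -0.365 (SE 0.0349, limma adjusted p = 0.0388), and the reads gave an adjusted p of 0.0183 in the quasi-binomial model. SBF1, a catalytically inactive member of the myotubularin phosphatase family, had an inclusion of 0.14 and 0.22 with TIP60 siRNA, against 0.58 and 0.72 with control siRNA. The difference was -0.47 (SE 0.0374, limma adjusted p = 0.0196; quasi-binomial adjusted p = 0.0373), with no overlap between the groups.

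ARHGAP17 encodes a GTPase-activating protein, and its cassette exon has 234 bases, all coding. Inclusion was 0.11 and 0.37 with TIP60 siRNA, against 0.59 and 0.77 with control siRNA. The groups did not overlap, and the libraries within each group differed by more than those of MARK3. Reads with the exon numbered 14 and 15 and those without it 26 and 6 with TIP60 siRNA. Under control siRNA they numbered 83 and 41 with it and 12 and 2 without it. The MISO intervals lay apart in pair 1 but overlapped in pair 2 (0.18 to 0.66 against 0.54 to 0.94). The difference was -0.44 (SE 0.0293, limma adjusted p = 0.0133, quasi-binomial adjusted p = 0.0502). PPP3CB, a catalytic subunit of the phosphatase calcineurin, went the other way, with an inclusion of 0.94 and 0.88 with TIP60 siRNA, against 0.62 and 0.5 with control siRNA. Its difference was 0.35 (SE 0.0356, limma adjusted p = 0.0417, quasi-binomial adjusted p = 0.0721).

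These limma calls depended on single libraries, on the lines that share the spread and on the measure. Without the control-siRNA library 2, the adjusted p was 0.0812 for SBF1, 0.208 for MARK3 and 0.23 for PPP3CB. Leaving out the TIP60-siRNA library 1 gave 0.0669 for ARHGAP17, 0.0839 for MARK3 and 0.0899 for PPP3CB, and leaving out the TIP60-siRNA library 2 gave 0.0768 for both MARK3 and PPP3CB. With no control-siRNA library 1, all 4 passed, among 34 events in all. In a fit without the replicate block MARK3 alone passed (adjusted p = 0.0422), and in a fit of the 4 libraries alone none did (adjusted p from 0.374 to 0.411), where a single residual degree of freedom was left. All 4 were lost without the catalytically dead line (adjusted p from 0.103 to 0.171), and without the wild-type line MARK3 alone passed of the 4 (0.0427; 0.112 for ARHGAP17, 0.125 for SBF1 and PPP3CB). On the plain ratio of isoform-specific reads the adjusted p was 0.105 for SBF1, 0.494 for ARHGAP17, 0.051 for MARK3 and 0.105 for PPP3CB.

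**Figure D1:**
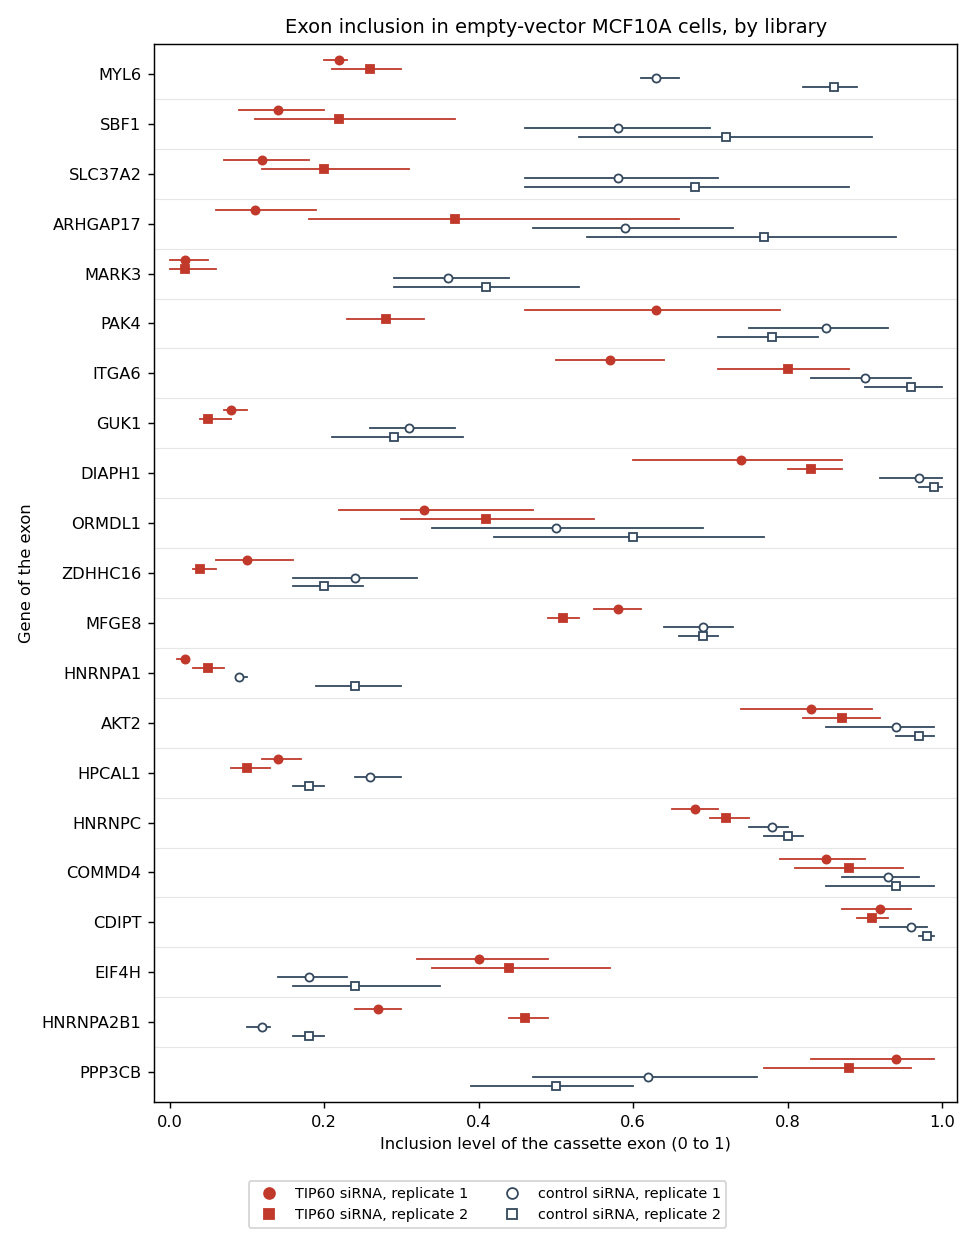
Inclusion level (horizontal axis, 0 to 1) of named exons in each of the 4 empty-vector libraries, for exons named from the inclusion test or the read test with groups that do not overlap, ordered by their difference. Filled red marks are TIP60 siRNA and open dark marks control siRNA, circles are replicate 1 and squares replicate 2, and lines are the MISO intervals. MYL6, SBF1 and SLC37A2 at the top have the TIP60-siRNA marks furthest to the left of the control-siRNA marks, and in PPP3CB at the bottom they lie to the right.

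MYL6 passed on its reads and had the widest difference in inclusion among the exons that did. It encodes the essential light chain of non-muscle and smooth muscle myosin, and its cassette exon changes the end of the protein. Reads with the exon numbered 730 and 115 and those without it 1396 and 171 in the TIP60-siRNA libraries, against 1814 and 457 with it and 553 and 38 without it in the control-siRNA libraries. Inclusion was 0.22 and 0.26 with TIP60 siRNA, against 0.63 and 0.86 with control siRNA. The groups did not overlap, and the difference of -0.505 had a quasi-binomial adjusted p of 0.0178 and a limma adjusted p of 0.0693. DIAPH1, a formin that nucleates actin filaments, had an inclusion of 0.74 and 0.83 with TIP60 siRNA, against 0.97 and 0.99 with control siRNA (quasi-binomial adjusted p = 0.0217; limma adjusted p = 0.0693).

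Of the genes for RNA-binding proteins of the hnRNP family, HNRNPA1 lost and HNRNPA2B1 gained inclusion by the read test. HNRNPA1 had an inclusion of 0.02 and 0.05 with TIP60 siRNA, against 0.09 and 0.24 with control siRNA (quasi-binomial adjusted p = 0.0183). HNRNPA2B1 stood at 0.27 and 0.46 with TIP60 siRNA, against 0.12 and 0.18 with control siRNA (quasi-binomial adjusted p = 0.0447). In neither gene did the groups overlap. Their limma adjusted p-values were 0.266 and 0.164.

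Exons of MFGE8, ITGA6, PAK4 and SLC37A2 also fell on their reads. MFGE8, a secreted glycoprotein of milk fat globules, had 0.58 and 0.51 with TIP60 siRNA, against 0.69 and 0.69 with control siRNA. ITGA6, the integrin alpha 6 chain, had 0.57 and 0.8 with TIP60 siRNA, against 0.9 and 0.96 with control siRNA. The kinase PAK4 had 0.63 and 0.28 with TIP60 siRNA, against 0.85 and 0.78 with control siRNA. The 2 TIP60-siRNA libraries thus differed from each other in PAK4 by more than the control-siRNA libraries did, and the groups of all 3 genes stayed apart. SLC37A2, a sugar phosphate transporter of the endoplasmic reticulum, had an inclusion of 0.12 and 0.2 with TIP60 siRNA, against 0.58 and 0.68 with control siRNA (quasi-binomial adjusted p = 0.0457). For MFGE8, ITGA6 and PAK4 the quasi-binomial adjusted p was 0.0183, 0.0457 and 0.0447, and exons of GUK1, ZDHHC16 and HPCAL1 in 5' untranslated regions fell too (0.0447 each). An exon of LRRC75A-AS1 (lower) and one of PTRH2 (higher) passed with overlapping inclusion groups, and these were named after their values were seen. The read test depends on every library: leaving out the TIP60-siRNA library 1 or 2 left 0 calls (213 and 175 events at an unadjusted p under 0.05), and leaving out the control-siRNA library 1 or 2 left 1 and 3. The fit with no replicate block left 2, in MARK3 (adjusted p = 0.0327) and MYL6 (adjusted p = 0.0202).

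The other exons that the inclusion test named by their small p did not pass either test. EIF4H, a cofactor of the translation helicase eIF4A, had an inclusion of 0.4 and 0.44 with TIP60 siRNA, against 0.18 and 0.24 with control siRNA (limma adjusted p = 0.0762). AKT2, a kinase of insulin signalling, had 0.83 and 0.87 with TIP60 siRNA, against 0.94 and 0.97 with control siRNA (limma adjusted p = 0.0693). The 5' untranslated exon of HNRNPC had 0.68 and 0.72 with TIP60 siRNA, against 0.78 and 0.8 with control siRNA (limma adjusted p = 0.0693). Exons of CDIPT, ORMDL1 and COMMD4 were lower in both TIP60-siRNA libraries than in either control-siRNA library (limma adjusted p = 0.0762 each).

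**Figure D2:**
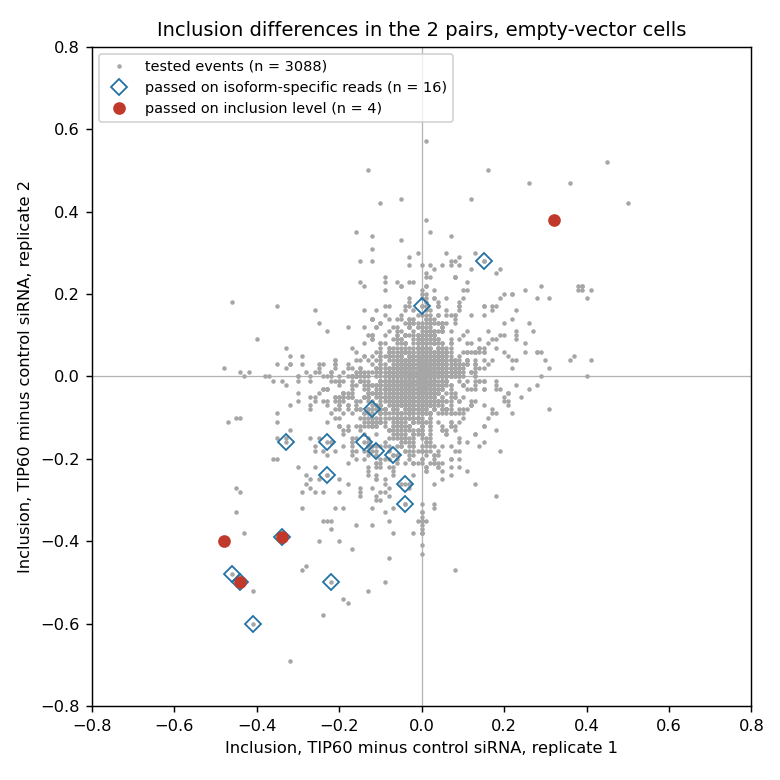
Difference in inclusion, TIP60 siRNA minus control siRNA, in replicate 1 (horizontal) and replicate 2 (vertical) for the 3088 tested events (grey), with the 4 events that passed on inclusion level (red) and the 16 that passed on isoform-specific reads (blue diamonds). Most events lie near 0 in both pairs and most coloured marks lie at the lower left.

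Size was described without a model as well, because 2 libraries against 2 cannot reach an exact p under 0.05, and 2 pairs allow none below 0.5. In 111 events (3.59%) both TIP60-siRNA libraries lay at least 0.1 from both control-siRNA libraries, with 82 lower (2.66%) and 29 higher (0.939%). The groups did not overlap, by any margin, in 692 events or 22.4%. MISO intervals lay apart in both pairs in 41 lower events (1.33%) and 9 higher events (0.291%). Across the 3088 events the differences of pair 1 and pair 2 had a Pearson r of 0.35, as a description over events that share their libraries. The median difference over all tested events was -0.005.

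The exons separated by at least 0.1 were described by their annotation. The 77 distinct exons that were lower had a median GC content of 56.1% and the 23 that were higher 49.1%, against 50.3% over all 2821 tested exons on primary chromosomes and 50.8% over the 1346 of these with a mean inclusion of 0.1 to 0.9 under control siRNA. The median length was 126 bases for the lower and 105 for the higher exons, against 126 over all and 138 over those of intermediate inclusion. Exons of at most 50 bases made up 10.4% of the lower exons, 13.0% of the higher exons, 6.2% of all tested exons and 4.09% of those of intermediate inclusion. Lengths that are a multiple of 3, which keep the reading frame, made up 62.3% of the lower exons, 78.3% of the higher exons, 57.1% of all and 59.8% of those of intermediate inclusion. These shares are descriptions with no test.

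Gene groups were described by counts beside the same counts over all genes, of which 4 of 2080 had a called inclusion event and 295 had one at an unadjusted p under 0.05, 223 lower and 72 higher by their event of smallest p. The epithelial-mesenchymal splicing programme was taken as a list of genes with exons known to be spliced differently in epithelial and mesenchymal cells. Any tested event of these genes was counted, and the events were not matched to the known exons. Of its 20 genes with a tested event, ARHGAP17 and MARK3 fell. At an unadjusted p under 0.05 there were 9 of the 20, all lower, among them these and ABI1, SLC37A2, ITGA6, CLSTN1, NUMB and PLEKHA1. The median difference over its 43 events was -0.025, against -0.005 over all. Of 25 genes for actin and adhesion proteins 1 fell and 13 were at an unadjusted p under 0.05, of which 11 were lower, with a median of -0.015 over 51 events. Both lists, like those below, were chosen with earlier results of these data known, so their counts are a description and no independent support. Genes with more tested events also had more chances at a small p, and the 2080 genes in all held 2819 events.

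None of the other lists had an inclusion event that passed limma. Of the TIP60 complex 3 genes had a tested event and none was at an unadjusted p under 0.05, with BRD8, a bromodomain subunit, at 0.39 and 0.33 with TIP60 siRNA, against 0.49 and 0.43 with control siRNA (limma adjusted p = 0.519). Among 12 DNA damage response genes, none was at an unadjusted p under 0.05 either. Of 10 chromatin genes 5 were at that level, 3 lower and 2 higher, with the exon of the histone methyltransferase EHMT2 at 0.64 and 0.64 with TIP60 siRNA, against 0.92 and 0.88 with control siRNA (limma adjusted p = 0.0762). Reads without the EHMT2 exon numbered only 4 and 2 with TIP60 siRNA, against 0 and 0 with control siRNA. Its MISO intervals overlapped in both pairs, and its quasi-binomial adjusted p was 0.37. Among 12 apoptosis genes 5 were at an unadjusted p under 0.05 (4 lower and 1 higher), and 9 hnRNP genes gave 4 (2 lower and 2 higher). The 8 p53 targets gave 2, 11 other splicing regulators gave 2, 7 SR proteins gave 1, 10 cell cycle genes gave 3 and 6 interferon response genes gave 1, all lower. Over all genes it was 295 of 2080.

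RNA levels were compared through the reads of each event that fit at least 1 form, in RPM, a proxy of expression that covers the exons of an event and not the whole gene. TIP60 siRNA lowered the event reads of CCNG1, BDNF, TFPI and TGFBR2, among others, and raised those of MMP28, AREG, TP53I3, TP53INP1 and CD55. Of 4469 events with a mean of at least 20 such reads, 174 passed limma with the replicate block, or 3.89%, with 118 lower (2.64%) and 56 higher (1.25%). They lay in 123 genes, 78 lower and 45 higher, with 20 further events of no clear gene. The groups did not overlap in 149 of the 174, against 26.1% of all events. At an unadjusted p under 0.05 there were 885 events, or 19.8%. No event passed in a fit without the replicate block (232 at an unadjusted p under 0.05). The count was 34 and 276 without the TIP60-siRNA library 1 and 2, and 63 and 78 without the control-siRNA library 1 and 2. Changes are on the scale of log2(RPM + 0.5), which understates those of low events, and the median over all events was -0.096.

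Among p53 target genes, which are induced by that transcription factor after stress, 4 of 11 with a tested event changed, 3 higher and 1 lower, against 123 of 2855 genes in all. This list, too, was chosen with earlier results of these data known, so the count is a description and no independent support. TP53I3, a quinone oxidoreductase, had 3128 and 2314 RPM with TIP60 siRNA, against 779 and 636 RPM with control siRNA. The groups lay apart, with a log2 change of 1.93 (SE 0.26, limma adjusted p = 0.00975). TP53INP1, a regulator of autophagy and cell death, had 264 and 293 RPM with TIP60 siRNA, against 59.1 and 87.7 RPM with control siRNA (log2 change 1.94, SE 0.344, limma adjusted p = 0.0211). CDKN1A, the cyclin-dependent kinase inhibitor p21, had 577 and 355 RPM with TIP60 siRNA, against 200 and 183 RPM with control siRNA (log2 change 1.24, SE 0.221, limma adjusted p = 0.0213). CCNG1, which encodes cyclin G1, went against these with 416 and 259 RPM under TIP60 siRNA, against 1991 and 1045 RPM under control siRNA. That is a log2 change of -2.14 (SE 0.183, limma adjusted p = 0.00287), and both tested CCNG1 events fell. TP53I3 and CCNG1 passed with any 1 of the 4 libraries left out, whereas TP53INP1 and CDKN1A missed the threshold without the TIP60-siRNA library 1 (adjusted p = 0.0619 and 0.0878) and without the control-siRNA library 1 (0.0897 each).

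The largest rises in event reads included MMP28, AREG and CD55. MMP28, a matrix metalloproteinase of epithelia, had 411 and 630 RPM with TIP60 siRNA, against 35.8 and 65.0 RPM with control siRNA. The groups lay 10.4-fold apart on the fitted scale (log2 change 3.38, SE 0.374, limma adjusted p = 0.00532). AREG, a ligand of the EGF receptor, had 1961 and 1061 RPM with TIP60 siRNA, against 557 and 224 RPM with control siRNA (log2 change 2.03, SE 0.378, limma adjusted p = 0.0238). CD55, which protects cells from complement, had 790 and 766 RPM with TIP60 siRNA, against 243 and 221 RPM with control siRNA (log2 change 1.75, SE 0.222, limma adjusted p = 0.00841). Libraries of 1 group lay close together in CD55 and further apart in AREG. The other rises named by their size were PCED1B, WDYHV1, the transporter ABCC5, glycerol kinase (GK) and the adhesion protein AMIGO2, with log2 changes from 1.78 to 2.30. CD55, WDYHV1 and ABCC5 had 2 tested events each, of which only 1 was called, and AMIGO2 had 2, both called. MMP28, WDYHV1, ABCC5 and CD55 passed with any 1 library left out. AREG, AMIGO2 and PCED1B did not pass without the TIP60-siRNA library 1 (adjusted p = 0.107, 0.107 and 0.129) or the control-siRNA library 2 (0.139, 0.15 and 0.173), PCED1B also not without the control-siRNA library 1 (0.0586), and GK without any of the 4 (0.0551 to 0.107).

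**Figure D3:**
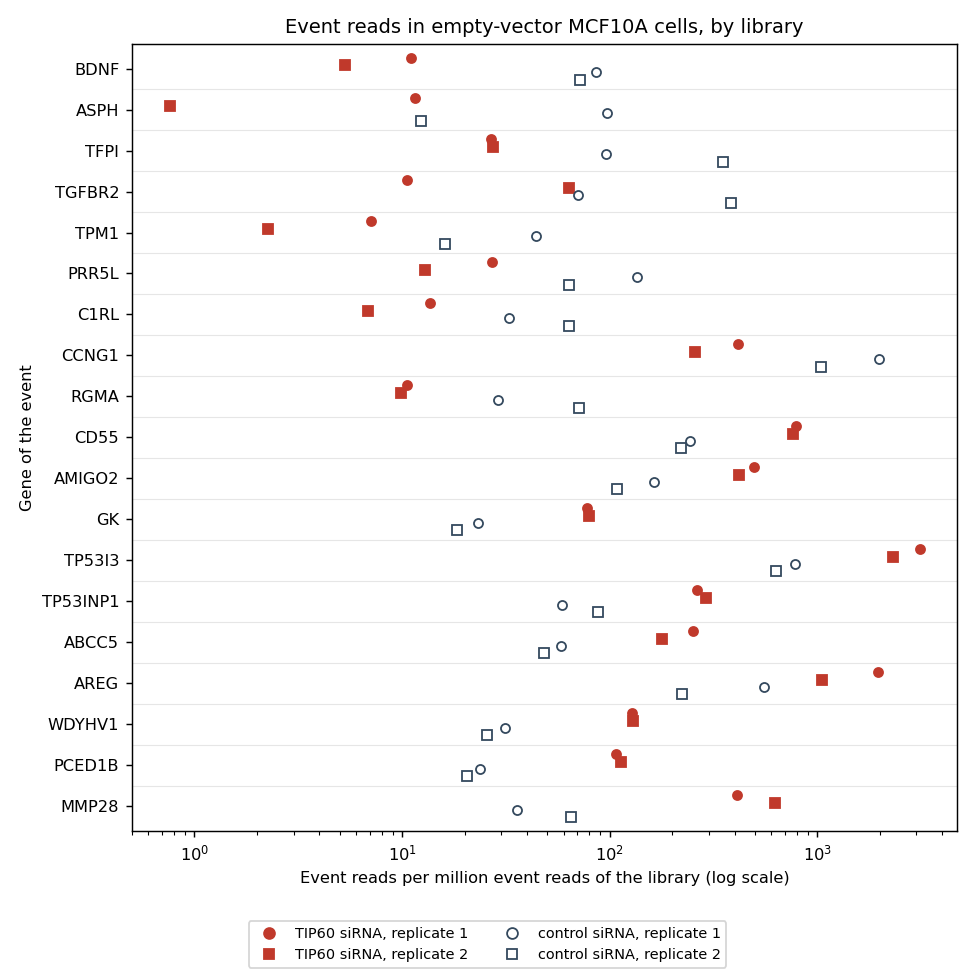
Event reads in RPM (horizontal axis, log scale) of 19 genes among the largest falls and rises in the 4 empty-vector libraries, ordered by their change. Filled red marks are TIP60 siRNA and open dark marks control siRNA, with circles for replicate 1 and squares for replicate 2. The red marks lie left of the dark ones in the upper 9 genes and right of them in the lower 10.

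The largest falls in event reads included BDNF, TGFBR2 and TFPI. BDNF, a neurotrophin, had 11.1 and 5.31 RPM with TIP60 siRNA, against 86.1 and 72.3 RPM with control siRNA. All 3 tested BDNF events fell, this one with a log2 change of -3.28 (SE 0.469, limma adjusted p = 0.0131). On all reads of the event, those fitting neither form included, the change of BDNF was -1.61 and the call was lost (adjusted p = 0.064), as was that of C1RL (-1.03, adjusted p = 0.284), and TFPI changed by -1.78 (adjusted p = 0.0481). TGFBR2, the type II receptor of TGF-beta, had 10.6 and 63.7 RPM with TIP60 siRNA, against 70.3 and 386 RPM with control siRNA (log2 change -2.63, SE 0.543, limma adjusted p = 0.0318). The 2 libraries of each siRNA differed severalfold in TGFBR2, and the groups lay apart narrowly. TFPI, an inhibitor of blood coagulation, had 26.7 and 27.3 RPM with TIP60 siRNA, against 96.4 and 351 RPM with control siRNA (log2 change -2.75, SE 0.497, limma adjusted p = 0.0223). ASPH, TPM1, PRR5L, C1RL and RGMA were other named falls, with log2 changes from -3.19 to -2.10. Some of them rest on few reads. ASPH had 23 and 1 event reads with TIP60 siRNA, against 209 and 17 with control siRNA. TPM1 had 14 and 3, against 95 and 22, and C1RL 27 and 9, against 70 and 87. Of 2 tested TPM1 events only 1 was called, and of 2 tested ASPH events both were. The ASPH groups lay apart narrowly, at 11.6 RPM in the TIP60-siRNA library 1 against 12.4 RPM in the control-siRNA library 2. None of these 8 passed with every library left out in turn: the highest adjusted p was 0.0533 for BDNF without the control-siRNA library 1, 0.0867 for PRR5L without it, 0.0672 for TFPI without the TIP60-siRNA library 1, and 0.197 for TGFBR2, 0.122 for ASPH, 0.0661 for TPM1, 0.261 for C1RL and 0.211 for RGMA without the control-siRNA library 2.

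Further list members changed in event reads. JADE2, a subunit of a histone acetyltransferase complex, had 906 and 1377 RPM with TIP60 siRNA, against 2560 and 4737 RPM with control siRNA (log2 change -1.64, SE 0.195, limma adjusted p = 0.00624), and passed with any 1 library left out. MORF4L2, a subunit of the TIP60 complex, had 1760 and 1405 RPM with TIP60 siRNA, against 3602 and 2007 RPM with control siRNA (log2 change -0.77, SE 0.161, limma adjusted p = 0.0328), and it was the one called gene of 5 of that complex. The groups lay apart in both genes. Of 3 tested JADE2 events 2 were called, and of 2 tested MORF4L2 events both were. CCND3 (cyclin D3) and SKA2, a kinetochore protein, fell among 11 cell cycle genes, whose 21 events had a median log2 change of -0.946, against -0.107 over the 4150 events of clear gene. That median is over events and not over genes. CCND3 and SKA2 had 4 tested events each, of which 2 and 3 were called, and overlapping events of a gene share reads. ITGB1 and TPM1 fell among 29 actin and adhesion genes, CTNND1 and CSNK1G3 fell and SLC37A2 rose among 23 of the epithelial-mesenchymal programme, and EWSR1 fell among 13 other splicing regulators, against 123 called of 2855 genes in all. Only 1 of 6 tested events was called for CTNND1, and 1 of 2 each for CSNK1G3 and EWSR1. The groups overlapped in ITGB1, with 5004 and 2546 RPM under TIP60 siRNA, against 8292 and 4447 RPM under control siRNA, and in CCND3, with 101 and 290 RPM under TIP60 siRNA, against 180 and 732 RPM under control siRNA. No gene of the SR, hnRNP, DNA damage, apoptosis or interferon lists passed in event reads (2 of 8, 2 of 10, 3 of 14, 3 of 14 and 1 of 7 genes at an unadjusted p under 0.05, against 613 of 2855 genes in all). With median-of-ratios scaling in place of total event reads the median of all events was 0.0187 in place of -0.096, and the calls of MORF4L2 (adjusted p = 0.156), ITGB1 (0.169), CTNND1 (0.155), CSNK1G3 (0.131), EWSR1 (0.0592), CCND3 (0.0577), SKA2 (0.0512), C1RL (0.0577) and RGMA (0.0592) were lost. MORF4L2, CTNND1, ITGB1, SKA2, EWSR1, CCND3 and CSNK1G3 also missed the threshold without the TIP60-siRNA library 1. Each of them missed it as well without at least 1 of the control-siRNA libraries. CSNK1G3 missed it without any 1 of the 4 libraries (log2 changes from -0.88 to -0.73). Of 30 named genes called in event reads, 8 passed with any 1 library left out, and 19 and 4 were lost without the TIP60-siRNA library 1 and 2, 15 and 16 without the control-siRNA library 1 and 2.

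Event reads and inclusion were also read side by side. Of the 174 events called on event reads 127 were also tested for inclusion, and none of them passed the limma inclusion test. In 6 of the 127, or 4.72%, inclusion was separated by at least 0.1, against 3.59% of all tested events, which is near it. With 4 inclusion calls in all, the absence of shared calls is no result. SLC37A2 was called on its event reads, with 780 and 740 RPM under TIP60 siRNA, against 318 and 215 RPM under control siRNA (log2 change 1.54, SE 0.205, limma adjusted p = 0.00975), and the same event was called on its isoform-specific reads, in which the share with the exon fell. MARK3, SBF1, PPP3CB and ARHGAP17 had log2 changes in event reads of -0.08, 0.17, -0.24 and -0.94, and none passed (limma adjusted p from 0.154 to 0.878).

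The same siRNA comparison in the lines with a resistant TIP60 gives the setting of these changes. By the difference of siRNA effects, no event passed limma on inclusion against the wild-type line (0.0% of 3086, with 118 or 3.82% at an unadjusted p under 0.05) or the catalytically dead line (0.0% of 3084, with 93 or 3.02%). MARK3 changed by -0.365 in empty-vector cells, -0.22 in the wild-type line and -0.42 in the catalytically dead line. SBF1 changed by -0.47, -0.465 and -0.485 in the same order, and MYL6 by -0.505, -0.465 and -0.545. The difference from the wild-type line was -0.005 for SBF1 (SE 0.0528) and -0.145 for MARK3 (SE 0.0493, unadjusted p = 0.0252, limma adjusted p = 1.0). SLC37A2 stood out in size, with -0.47 in empty-vector cells, 0.025 in the wild-type line and -0.345 in the catalytically dead line, a difference from the wild-type line of -0.495 (SE 0.106, unadjusted p = 0.00326, limma adjusted p = 1.0). The smallest p against the wild-type line was that of ORMDL1, at -0.18 in empty-vector cells and 0.03 in the wild-type line (unadjusted p = 0.001, limma adjusted p = 1.0), and against the catalytically dead line that of NKIRAS2, at -0.105 in empty-vector cells and 0.17 in that line (unadjusted p = 0.000593, limma adjusted p = 1.0). NKIRAS2 had 0 reads without the exon in each of the 4 empty-vector libraries. Reads with it numbered 15 and 15 with TIP60 siRNA, against 10 and 17 with control siRNA. Its inclusion levels there thus had wide MISO intervals (0.38 to 0.97 in the TIP60-siRNA library 1), and its -0.105 has no skipping read behind it.

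**Figure D4:**
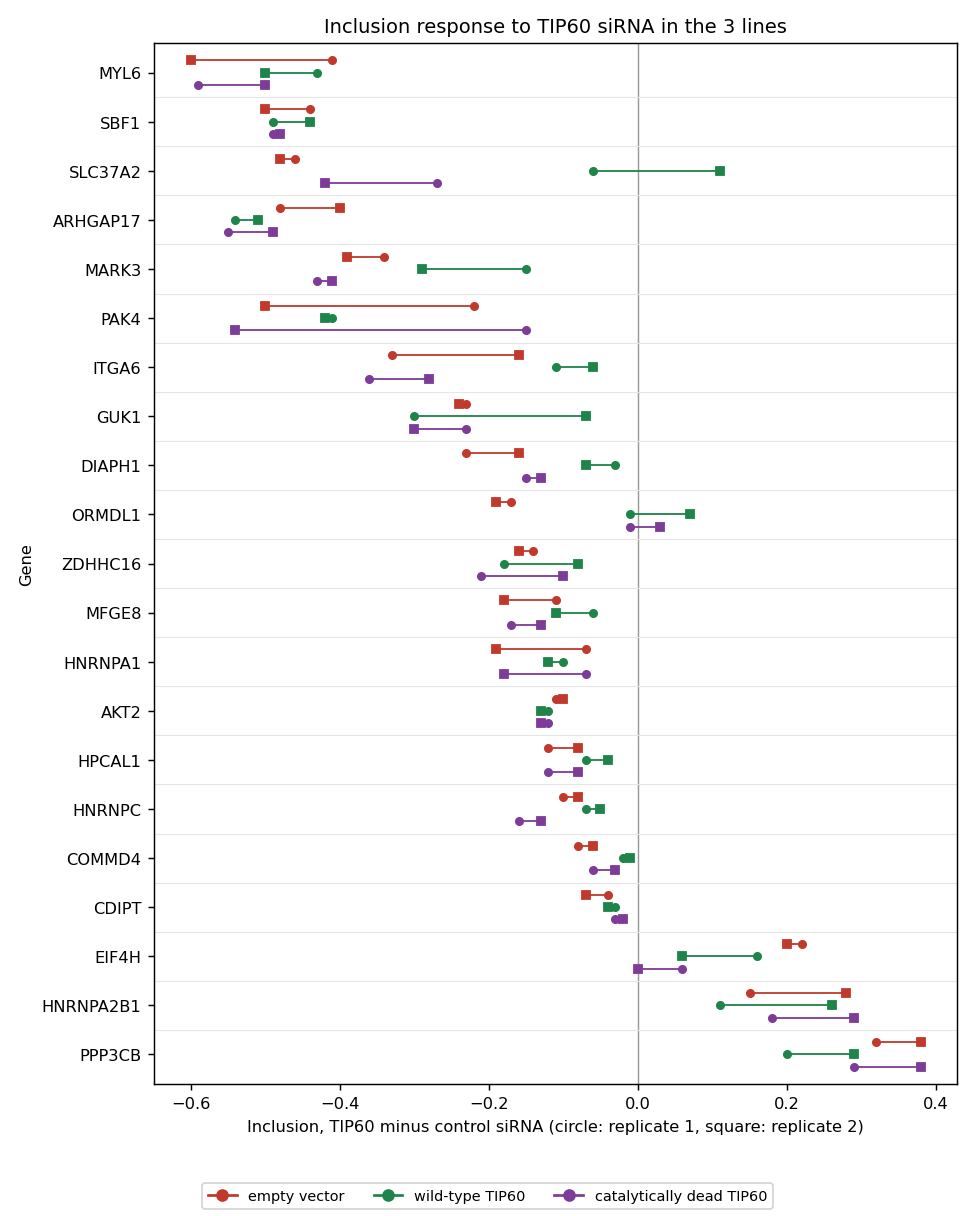
Difference in inclusion, TIP60 siRNA minus control siRNA (horizontal axis), in the empty-vector line (red), the wild-type TIP60 line (green) and the catalytically dead TIP60 line (purple), for the same exons as in the plot of inclusion by library. Each line joins the pairs of replicate 1 (circle) and replicate 2 (square). In MYL6 and SBF1 all 3 lines lie left of 0, and in SLC37A2 the wild-type line lies near 0.

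In event reads, too, no difference between lines passed limma (0.0% of 4468 events against the wild-type line, with 134 or 3.0% at an unadjusted p under 0.05, and 0.0% of 4467 against the catalytically dead line, with 37 or 0.828%). CCNG1 changed by -2.14 in empty-vector cells, -2.02 in the wild-type line and -2.16 in the catalytically dead line on the log2 scale. TP53I3 changed by 1.93, 1.17 and 1.82 in that order. CDKN1A changed by 1.24 in empty-vector cells, -0.14 in the wild-type line and 0.72 in the catalytically dead line, and its difference from the wild-type line was 1.38 (SE 0.312, unadjusted p = 0.00153, limma adjusted p = 0.999). MMP28 changed by 3.38, 1.69 and 3.40, with a difference from the wild-type line of 1.70 (SE 0.529, unadjusted p = 0.0101, limma adjusted p = 0.999). A p that misses the threshold does not show that the lines responded alike.

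**Figure D5:**
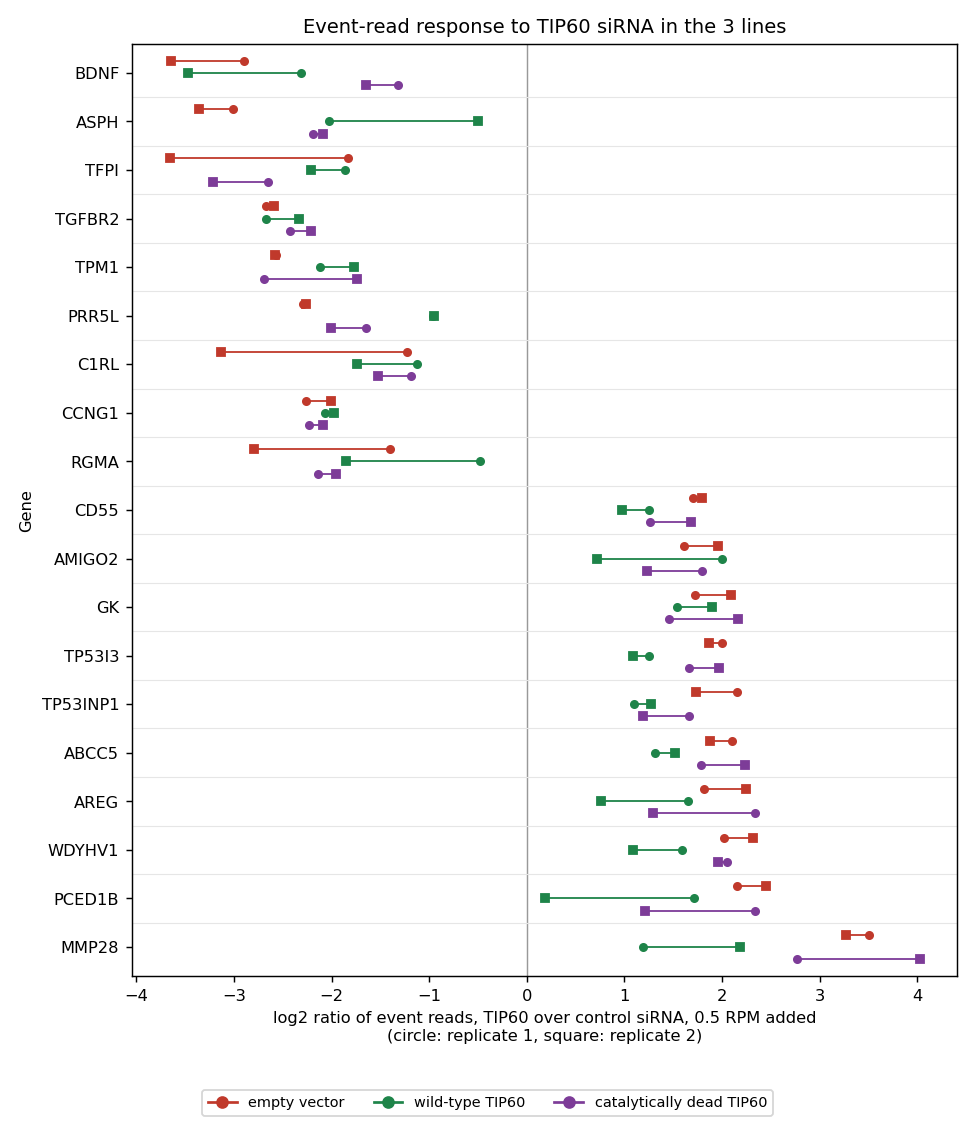
Log2 ratio of event reads, TIP60 siRNA over control siRNA with 0.5 RPM added (horizontal axis), in the empty-vector line (red), the wild-type TIP60 line (green) and the catalytically dead TIP60 line (purple), for the 19 genes of the plot of event reads by library. Each line joins replicate 1 (circle) and replicate 2 (square). All pairs of all lines lie on the same side of 0 in each gene, and MMP28 lies furthest right in empty-vector and catalytically dead cells.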

How the data were processed

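RNA was extracted with TRIzol and sequenced with a stranded mRNA kit, and reads were aligned with STAR to hg38, per the labels and the submitters' processing notes (no version stated). The deposited inclusion level is a fraction from 0 to 1, the MISO posterior mean per the file headers, rounded to 2 decimals, with an interval taken as 95%. The numbers of reads per read class stand in the deposited tables as text and are raw. Events were placed on genes with GENCODE release 29.

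Inclusion levels and log2(RPM + 0.5) of event reads were compared with limma 3.58.1 in R 4.3.3 (variance trend, robust), where RPM was computed here from the deposited read numbers. All 12 libraries entered as 6 groups with the replicate number as a block, so that the other 8 shared the spread; their missing values made up 2.23% (inclusion) and 0.411% (event reads). Isoform-specific reads were compared with a quasi-binomial model with a moderated dispersion of at least 1. P-values are two-sided and adjusted by Benjamini-Hochberg over all events of a comparison. The scripts were tested on simulated data.

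The replicate numbers pair the libraries: the replicate 1 minus replicate 2 deviations of any 2 groups correlated at 0.706 to 0.779 over 2695 events (inclusion) and 0.583 to 0.896 (event reads), over 15 pairs of groups. The pairing itself comes from the shared numbers in the labels.

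Named were KAT5, the events called on inclusion filled to 12 by smallest p, up to 15 called on reads with a difference of 0.1 or more and groups apart, the 10 largest falls and rises in event reads with groups apart, the list member of smallest p and the 5 smallest p between lines. Members, lists and rules were chosen with earlier results of these data known. The read test was revised after its results were seen: its dispersion floor was added because events with reads of 1 form alone distorted it, and its prior was then moved from events with 10 reads of each form to those with 60. Of the tested events 187 lie on alternate contigs with no gene and 82 match more than 1 gene; overlapping events of a gene share reads. A few named results are not reported here and remain in the counts.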

Additional observations from a re-analysis of the deposited data

How the results depend on the processing

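The number of inclusion calls, 4 in the reported fit, was 1 with no replicate block, 0 with the empty-vector libraries alone, 2 without the wild-type line, 0 without the catalytically dead line, 8 on log2 odds (3 shared) and 1 on the plain read ratio (0 shared), and ranged from 1 to 34 with 1 library left out. The 34 came without the control-siRNA library 1. The read test, 16 calls, gave 2 with no replicate block, 74 with the empty-vector libraries alone, 56 at a minimum of 20 reads, 7 with no minimum and 9 with a dispersion prior from events with 10 reads of each form, an alternative added after seeing the data; it ranged from 0 to 3 with 1 library left out. Event reads, 174 calls, gave 0 with no replicate block (232 at an unadjusted p under 0.05) and 97 with median-of-ratios scaling, and ranged from 34 (without the TIP60-siRNA library 1) to 276 (without the TIP60-siRNA library 2) with 1 library left out; without the control-siRNA library 1 the calls were 32 lower and 31 higher, against 118 and 56. The 111 separated events became 251 with no read minimum, 265 at a gap of 0.05 and 28 at a gap of 0.2. Difference in inclusion between empty-vector and wild-type lines ranged from 0 to 10 calls with 1 library left out, 10 without the control-siRNA library 1. The comparisons of event reads between lines were added after seeing the data and gave 0 calls in every alternative run. The cause of these changes was not tested. Of 923 alternative values of 69 single results, 781 kept direction and side of the threshold, 129 no longer passed, 12 newly passed and 1 turned its sign (the inclusion difference of ERCC1, -0.001 on the read ratio, against 0.045).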

Other observations

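The genes in this paragraph lie outside the rule for named genes and were picked after their values were seen, so that their calls are a description. The first 4 had lower event reads after TIP60 siRNA in empty-vector cells. INSIG1, which retains the sterol sensor in the endoplasmic reticulum, had 81.6 and 114 RPM with TIP60 siRNA, against 507 and 294 RPM with control siRNA (log2 change -2.00, SE 0.304, limma adjusted p = 0.0145). FDPS, farnesyl diphosphate synthase, had 225 and 141 RPM with TIP60 siRNA, against 715 and 321 RPM with control siRNA (log2 change -1.43, SE 0.226, limma adjusted p = 0.0145). MSMO1, a sterol oxidase, had 76.5 and 209 RPM with TIP60 siRNA, against 283 and 652 RPM with control siRNA (limma adjusted p = 0.0385). SREBF2, a transcription factor of sterol genes, had 55.4 and 136 RPM with TIP60 siRNA, against 157 and 354 RPM with control siRNA (limma adjusted p = 0.0343). The groups did not overlap in these 4 genes. Without the TIP60-siRNA library 1 none of them passed (adjusted p = 0.0525 for INSIG1, 0.0672 for FDPS, 0.174 for MSMO1 and 0.149 for SREBF2). INSIG1 changed by -0.18 in the wild-type line and -1.56 in the catalytically dead line, with a difference between empty-vector and wild-type lines of -1.82 (SE 0.43, unadjusted p = 0.00196, limma adjusted p = 0.999). In the same order of lines, FDPS changed by -0.26 and -1.51, MSMO1 by -0.82 and -1.49 and SREBF2 by -0.97 and -1.56. MSMO1 and SREBF2 were thus lower in the wild-type line too.

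Exons of further genes of the cytoskeleton, also picked after their values were seen, were apart in inclusion without passing limma. MPRIP, which binds myosin phosphatase, had 0.35 and 0.36 with TIP60 siRNA, against 0.78 and 0.74 with control siRNA (adjusted p = 0.0762 in limma). ABI1, an actin regulator, had 0.33 and 0.39 with TIP60 siRNA, against 0.62 and 0.86 with control siRNA (adjusted p = 0.0762 in limma). ADD3, an adducin of the membrane skeleton, went the other way, with 0.72 and 0.58 with TIP60 siRNA, against 0.22 and 0.16 with control siRNA (adjusted p = 0.118 in limma).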
